A study of Oncorhynchus mykiss with 38 samples.

Results

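Isolated spermatids of the rainbow trout were compared with isolated spermatocytes on nylon cDNA arrays, over all clones with a value. The samples were 9 of the 38 arrays of the series, 3 of fractions labelled as isolated spermatids and 6 of fractions labelled as isolated spermatocytes. The other 29 arrays were 6 fractions of isolated spermatogonia and 23 whole testes, 13 of them immature (stages I, IIa and IIb), 3 meiotic (stage IIIb), 4 with spermatids (stage V) and 3 spawning (stage VIII). According to the Methods, both fractions came from pooled testes of fish in early maturation, which were digested with collagenase, shaken overnight, passed over Percoll and separated by size in an elutriation rotor. The fractions were enriched and not pure, the spermatocyte samples with spermatogonia and secondary spermatocytes beside primary spermatocytes and the spermatid samples mostly with post-meiotic cells. Each array was hybridized with cDNA made from the total RNA of a sample and labelled with radioactive phosphorus. No source used here gave a strain, a treatment or an age, and none said that replicates were separate animals or cell preparations, so that p-values measured the spread between these samples.

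Spermatocytes are the germ cells that carry out meiosis, in which homologous chromosomes pair along the synaptonemal complex and are divided among haploid daughter cells. These daughter cells, the spermatids, then grow a flagellum from a centriole, compact their chromatin and shed most of their cytoplasm on the way to spermatozoa. In animals studied so far many spermatid genes are already transcribed in late spermatocytes and many transcripts made in meiosis are kept until later, so that neighbouring cell types share much of their RNA. In the trout testis germ cells develop inside cysts of Sertoli cells, and the whole testis of stage IIIb holds meiotic cells whereas that of stage V also holds many spermatids.

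The values were log2 signals that the authors had normalized so that all arrays shared the same distribution. Their median was 8.166, the level the authors took as background, and their range was 5.308 to 13.379. A difference therefore told how a clone moved against the other clones, 1 log2 unit being a doubling, and in such mixed samples fewer cells of a type and less RNA per cell cannot be told apart. Of the 9024 clones 55 had no value on spermatid replicate 3 and 190 none on spermatocyte replicate 5, and these were fitted on the remaining arrays. A gene symbol was held for 841 clones, and clones without one are given by their array name. Group means were fitted over all 38 arrays with limma, and clones with a Benjamini-Hochberg adjusted p under 0.05 over all clones were called.

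The 3 spermatid arrays did not resemble each other equally. After each clone's mean of all 38 arrays was subtracted, replicates 1 and 3 correlated at 0.511 across the 9024 clones, and replicate 2 correlated with them at 0.054 and 0.077. The mean correlation with the spermatogonia arrays was 0.218 for replicate 2, 0.009 for replicate 1 and -0.154 for replicate 3, and that with the stage V arrays was -0.044, 0.384 and 0.253. With the spermatocyte arrays replicates 1 to 3 correlated at 0.491, 0.228 and 0.45 on average, so that replicate 2 was about as close to spermatocytes as to spermatogonia, and replicates 1 and 3 about as close to spermatocytes as to each other. The 6 spermatocyte arrays correlated with each other at 0.269 to 0.764. These are correlations across clones, which share arrays and normalization and are not independent. Spermatid replicate 2 thus stood apart from the other arrays of its label, and differences are given with and without it. Of all clones, 13.9%, 16.9% and 17.8% were above all spermatocytes in replicates 1, 2 and 3, and 15.1%, 13% and 21.8% below all of them, shares against which the counts of list members on single arrays are to be read.

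Genes of the flagellum and the centriole were low in spermatid replicate 2. Txndc6, a thioredoxin found in the testis and in flagella of mammals, had 11.01, 8.59 and 10.77 in spermatids 1 to 3 and 9.41 (lowest), 10.28 (median) and 11.08 (highest) in spermatocytes. Replicates 1 and 3 lay within the range of the spermatocytes and replicate 2 below it. The centrin gene cetn4, whose product belongs to centrioles, had 10.53, 9.71 and 11.19 in spermatids against 10.10, 10.56 and 10.81 in spermatocytes. For spata4, a spermatogenesis gene, the values were 9.25, 7.85 and 9.41 against 8.14, 8.50 and 9.51. The brighter clone of ift122, a gene of the transport machinery inside cilia and flagella, had 9.46, 8.20 and 9.27 against 8.91, 9.15 and 9.99. In replicate 2 all 4 of these genes were below every spermatocyte array, against 13% of all clones, whereas in replicates 1 and 3 none was, against 15.1% and 21.8%. The mean of the 4 genes was 10.06, 8.59 and 10.16 in the spermatid arrays, 9.24 to 10.33 in spermatocytes, 7.93 to 8.36 in spermatogonia and 9.80 to 10.17 in stage V testes. In spermatids 1 and 3 the mean of these 4 genes thus lay within the ranges of spermatocytes and of stage V testes. It was above every spermatocyte array except replicate 6. The median difference of the 4 genes was -0.12 with all replicates and 0.46 without replicate 2, when all 4 had values above 0 (Txndc6 0.57, cetn4 0.34, spata4 0.69 and ift122 0.12). None passed the test in either fit, the lowest p being that of spata4 without replicate 2 (unadjusted p = 0.0217 and adjusted p = 0.19 in limma).

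**Figure D1:**
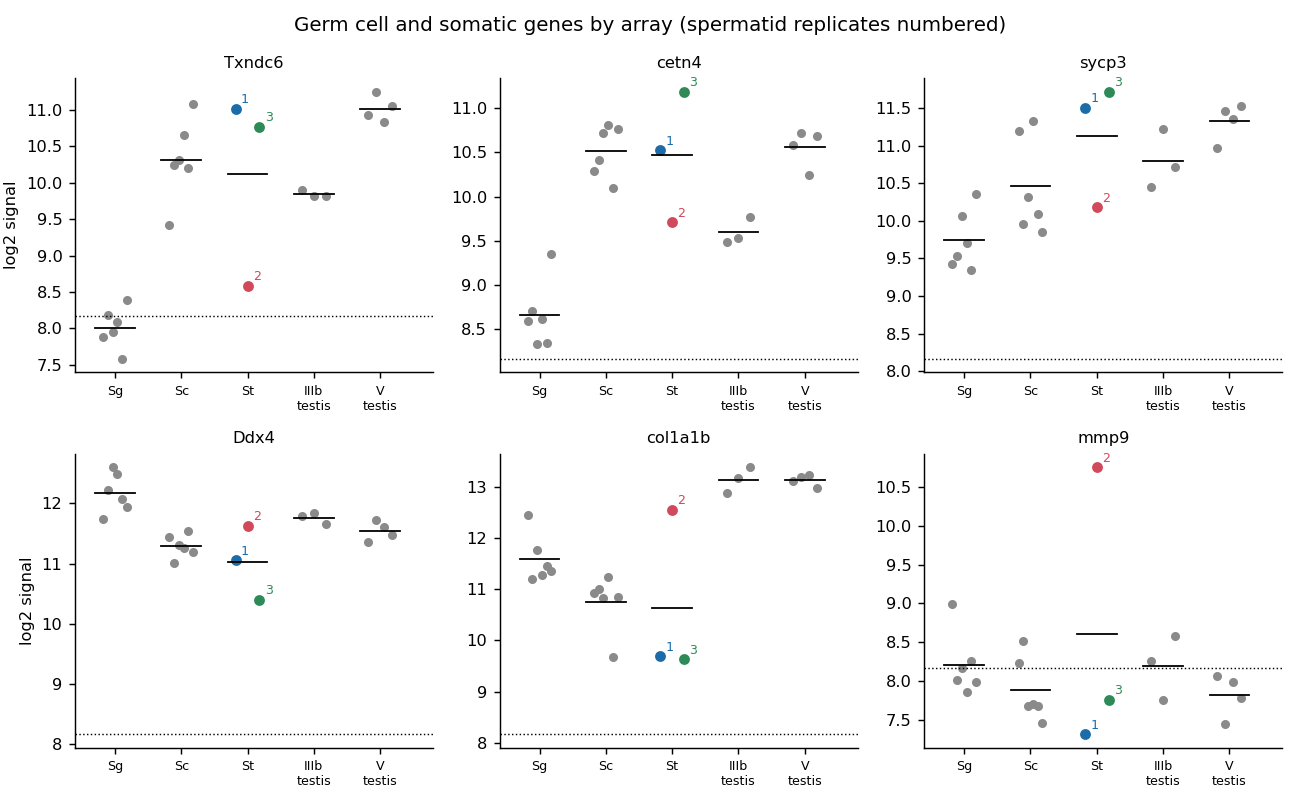
Log2 signal of 6 genes on each array of spermatogonia (Sg), spermatocytes (Sc), spermatids (St, replicates numbered and coloured) and whole testes of stages IIIb and V; black lines are group means and dotted lines the array median of 8.166. Spermatid replicate 2 is the lowest spermatid array for Txndc6 (8.59), cetn4 (9.71) and sycp3 (10.18) and the highest for Ddx4 (11.63), col1a1b (12.55) and mmp9 (10.75).

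The opposite held for 2 of 3 germ line genes and for several somatic genes. Ddx4, the vasa homolog of the germ line, had 11.06, 11.63 and 10.40 in spermatids 1 to 3 against 11.01, 11.28 and 11.53 in spermatocytes, and 12.17 on average in spermatogonia. The Piwi gene piwil2 had 8.48, 9.28 and 8.03 against 8.19, 8.53 and 8.85. For both genes replicate 2 was above every spermatocyte array and replicate 3 below every one. The third germ line gene, rtnanos3, was dim and lowest in replicate 2, with 7.72, 7.27 and 7.82 against 7.14, 7.55 and 8.34, and lay within the spermatocyte range on all 3 arrays. The median difference of the 3 genes was 0.02 with all replicates and -0.25 without replicate 2, and none passed the test. The collagen clone 1rt65f10_d_c05 of col1a1b had 9.69, 12.55 and 9.63 in spermatids and 9.68, 10.88 and 11.23 in spermatocytes. The matrix protease gene mmp9 had 7.32, 10.75 and 7.77 against 7.47, 7.70 and 8.52, and clu, which encodes a chaperone secreted by Sertoli cells, had 7.30, 9.96 and 8.29 against 6.91, 7.57 and 8.30. This col1a1b clone, mmp9 and clu were above every spermatocyte array in replicate 2 alone. The other clone of col1a1b and the collagen gene col1a2, both given below, were not above every spermatocyte array in replicate 2. The mean of 7 matrix and peritubular genes was 8.31, 10.27 and 8.59 in the spermatid arrays and 8.41 to 9.45 in spermatocytes, and 4 of the 7 were above all spermatocytes in replicate 2, against 16.9% of all clones, and 0 in replicates 1 and 3, against 13.9% and 17.8%. For 5 Sertoli cell genes the mean was 7.57, 8.37 and 7.87, against 7.34 to 7.82 in spermatocytes. For 6 red blood cell genes it was 8.84, 8.27 and 8.31, against 8.15 to 9.57, with 0 of the 6 above all spermatocytes in replicate 2. Above all spermatocytes in replicate 2 were 2 of 5 Sertoli, 0 of 10 Leydig and 1 of 10 immune cell genes. The share over all clones was 16.9%. Below all of them were 0, 3 and 1 of these genes, against 13% of all clones. What part cells other than spermatids had in replicate 2 was not tested.

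With all replicates, 6 clones were called between spermatids and spermatocytes, 0.0665% of the 9024 tested, and all 6 were higher in spermatids. None was lower at this threshold in the limma fit, and at an unadjusted p under 0.05 there were 774 (8.58%), 444 higher (4.92%) and 330 lower (3.66%). All 3 spermatid arrays lay above all spermatocyte arrays for 72 clones (0.798%) and below all of them for 38 (0.421%), 1.22% in all, and 5 of the 6 called clones were among the former. The 95% interval of the difference lay within 1 log2 unit on either side of 0 for 8457 clones, and its median half-width over all clones was 0.381. For these 8457 clones, each taken alone, a change of signal of more than 2-fold lay outside the interval, which included replicate 2. From qPCR of a few somatic genes the study reported that its arrays tended to shrink differences between groups. The intervals therefore hold for signal and not for RNA amount, also because many clones lay under the array median, the level taken as background. The 3 spermatid arrays varied more than any other group, with a median SD of 0.335 over clones, against 0.293 in spermatocytes and 0.154 in stage V testes. The calls and the intervals rested on the spread pooled over all groups, so that the intervals may be too narrow for these fractions. With the 9 arrays of both fractions fitted alone limma called 0 clones, with 253 at an unadjusted p under 0.05.

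In 4 of the 6 called clones the spermatocytes had the lowest and the spawning testes of stage VIII the highest mean of all 9 groups. The comparison itself chose clones that were low in spermatocytes, and spermatocytes were the lowest group for 39 of the 209 clones called higher without replicate 2 and for 847 of all 9024. Clone tcay0029.g.05 had 9.53, 9.86 and 10.58 in spermatids 1 to 3 and 8.46, 8.55 and 9.04 as lowest, median and highest of the spermatocytes. All 3 spermatids were above all 6 spermatocytes, by 1.35 (SE 0.23, limma adjusted p = 0.00377). Its mean was 9.30 in spermatogonia, 10.59 in stage I, 9.66 in stage IIIb, 10.17 in stage V and 11.18 in stage VIII testes. Clone tcba0016.e.14 had 8.87, 9.20 and 10.53 against 8.15, 8.30 and 8.68 (difference 1.20, SE 0.20, limma adjusted p = 0.00377), and its mean in stage VIII testes was 10.04. The groups did not overlap, and replicate 3 was more than 1 unit above the other spermatids. Clone tcba0008.g.10 had 8.82, 9.39 and 10.55 against 7.55, 8.05 and 8.45 (difference 1.60, SE 0.33, limma adjusted p = 0.039) and reached 11.22 in stage VIII. LOC100136183 (clone tcay0041.h.20), known here by its locus number only and named after its values were seen, had 9.26, 9.34 and 10.17 against 8.12, 8.47 and 8.80 (difference 1.12, SE 0.22, limma adjusted p = 0.0198) and 11.13 in stage VIII. With spermatocytes the lowest group, all 4 were necessarily brighter in spermatogonia than in spermatocytes.

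The other 2 clones differed in their course. Clone tcbk0007.n.10 had 8.97, 8.60 and 9.57 in spermatids against 7.62, 8.07 and 8.14 in spermatocytes, a difference of 1.05 (SE 0.18, limma adjusted p = 0.00377) with no overlap. Its mean was 9.04 in spermatogonia and 9.29 in stage V but 8.03 in stage VIII, and the spermatocytes had the lowest mean of all groups here too. Clone tcay0039.i.23 had 8.43, 7.43 and 9.46 against 7.08, 7.35 and 7.47 (difference 1.14, SE 0.24, limma adjusted p = 0.039), with replicate 2 inside the range of the spermatocytes. Its mean was 8.45 in stage V and 8.44 in spermatids. In spermatogonia, spermatocytes and every other group of testes it was between 6.98 and 7.48, below the array median. In all 6 clones spermatid replicate 3 had the highest value, and without replicate 3 none of the 6 stayed called and 4 other clones were. Without replicate 2 all 6 were called, with differences of 1.24 (LOC100136183) to 1.70 (tcba0008.g.10) and limma adjusted p from 2.87e-05 (tcay0039.i.23) to 0.0105 (tcba0008.g.10).

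**Figure D2:**
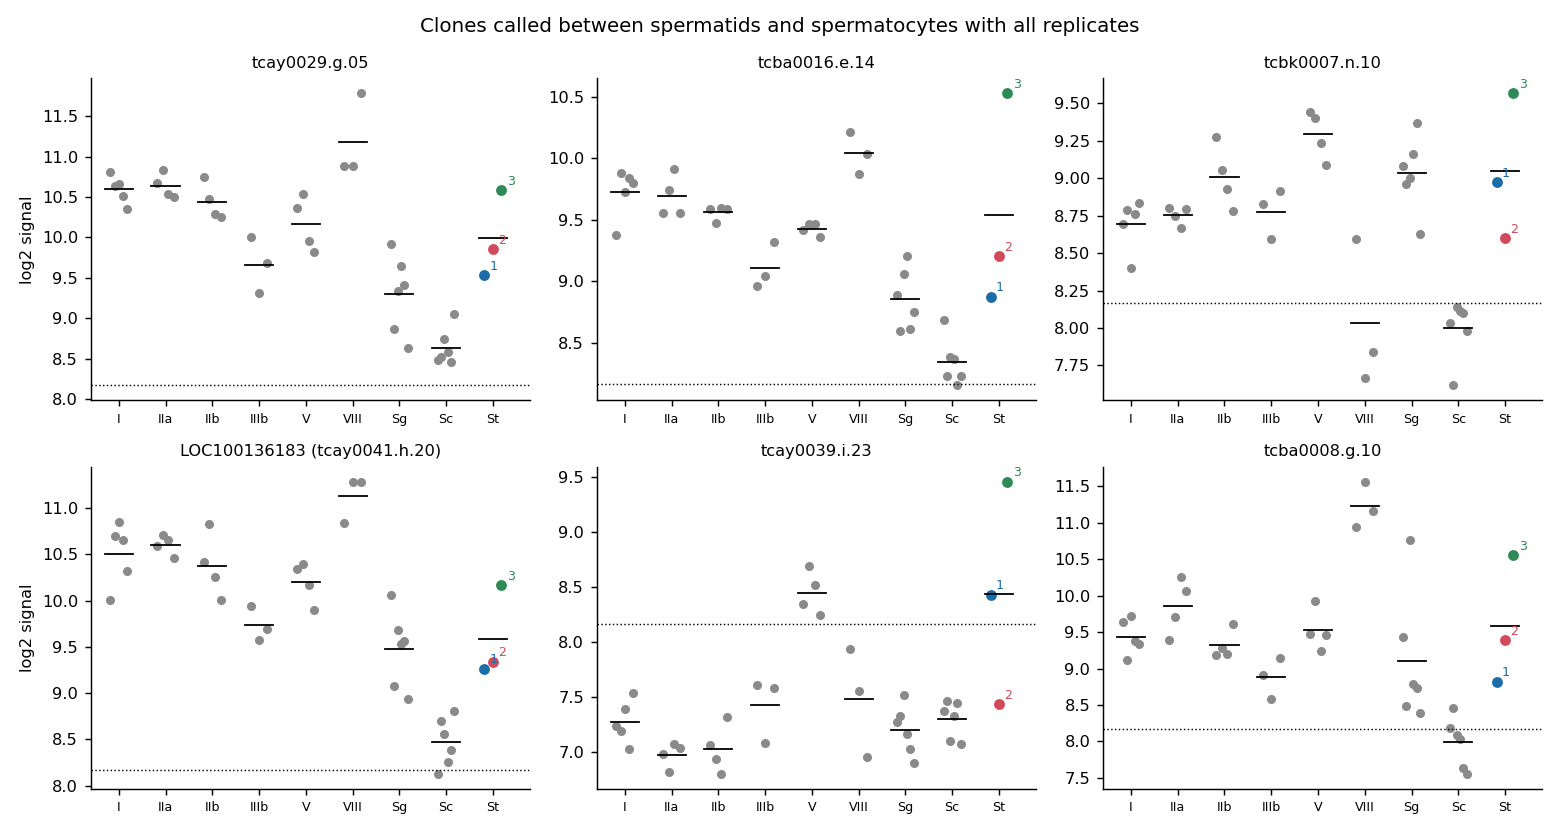
Log2 signal of the 6 clones called with all replicates on every array of whole testes (stages I to VIII), spermatogonia (Sg), spermatocytes (Sc) and spermatids (St, numbered); black lines are group means, dotted lines the array median of 8.166. Spermatid replicate 3 is the highest spermatid array in each panel, and stage VIII has the highest mean in 4 of the 6.

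Without spermatid replicate 2 the fit called 289 clones (3.2%), 209 higher in spermatids (2.32%) and 80 lower (0.887%), with the 6 clones above among the former. The plot of calls by left-out array shows that no other array moved the count as far. Leaving out spermatid replicate 1 gave 30 clones (27 higher, 3 lower) and leaving out replicate 3 gave 4, and leaving out single spermatocyte arrays gave 3 to 10, the lowest without replicate 4 and the highest without replicate 1. Both remaining spermatids lay above all spermatocytes for 150 of the 209 higher clones, against 376 of all clones (4.17%), and below all of them for 61 of the 80 lower ones, against 439 (4.86%). For all clones these shares were nearly even in both directions, whereas the called clones were mostly higher.

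**Figure D3:**
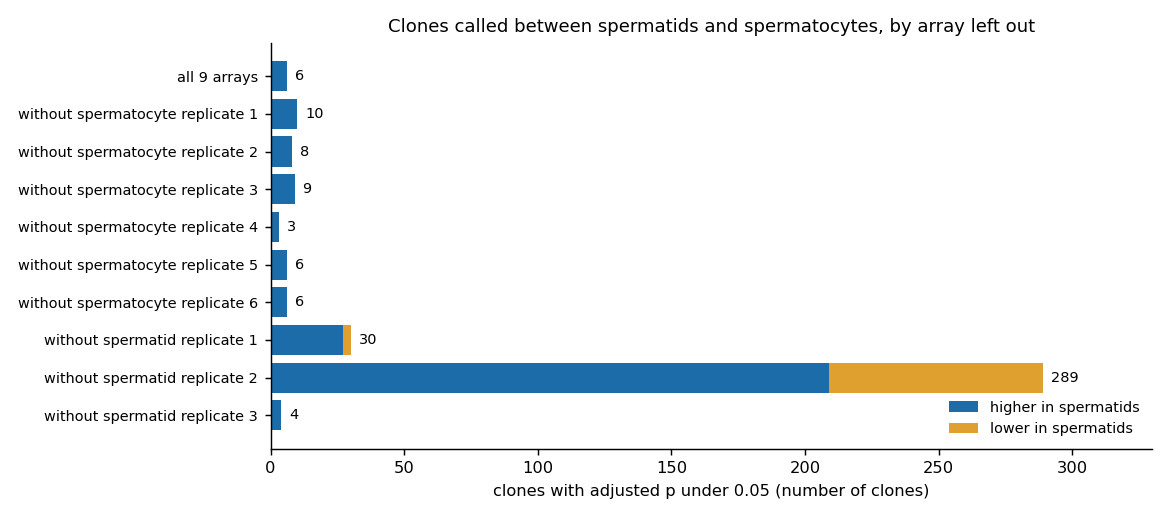
Number of clones called between spermatids and spermatocytes at an adjusted p under 0.05 (horizontal axis) with all 9 arrays and with each array left out in turn; blue parts are clones higher and yellow parts clones lower in spermatids. The count is 6 with all arrays and 289 without spermatid replicate 2.

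The 289 calls depended on how the spread was estimated. Their number was 8 (7 higher, 1 lower) when only the arrays of both fractions entered the fit, 37 with the spermatogonia added and 11, all higher, with array weights. It was 36 when only spermatid replicate 1 was left and 718 when only replicate 3 was left, fits in which the lone spermatid array was assumed to vary like the other groups. Of the 209 higher clones 173 were brighter in replicate 3 than in replicate 1, and of the 80 lower ones 56 were dimmer in replicate 3. A gap of more than 2 log2 units between these 2 arrays was found for 29 of the 209, 26 of them with replicate 3 the brighter, against 74 of all 9024 clones. An example is clone 1rt33k14_c_f07, with 8.74 in replicate 1 and 12.58 in replicate 3 against a spermatocyte median of 8.86. The largest difference of all, 2.69 for clone 1rt67p18_d_h09, rested on replicate 1 alone, with 12.63 there, 8.02 and 8.15 in the others and at most 7.98 in spermatocytes. Most of the higher clones were dim in spermatocytes, 159 of 209 with a mean below the array median.

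Whole testes gave a comparison whose means used none of the 9 fraction arrays, although both comparisons shared the spread pooled over all groups. Stage V testes were set against stage IIIb testes, in which spermatids are fewer. No clone was called between these stages with limma (lowest adjusted p = 0.185), and at an unadjusted p under 0.05 stage V was above for 359 clones (3.98%) and below for 119 (1.32%). Among the 209 clones higher in spermatids, stage V was above stage IIIb for 144 (68.9%), against 44.7% of all clones, and at an unadjusted p under 0.05 for 56 and below for 0. Among the 80 lower clones stage V was below stage IIIb for 60 (75%), against 55.3% of all clones, and at an unadjusted p under 0.05 for 3. The 56 clones made up 26.8% of those higher in spermatids and 15.6% of those higher in stage V. Of the 51 clones with stage V more than 1 log2 unit above stage IIIb, 18 (35.3%) were among the 209, of which they were 8.61%. Whole testes were not digested or shaken and hold somatic cells, so that isolation and cell type cannot be told apart between them and the fractions.

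**Figure D4:**
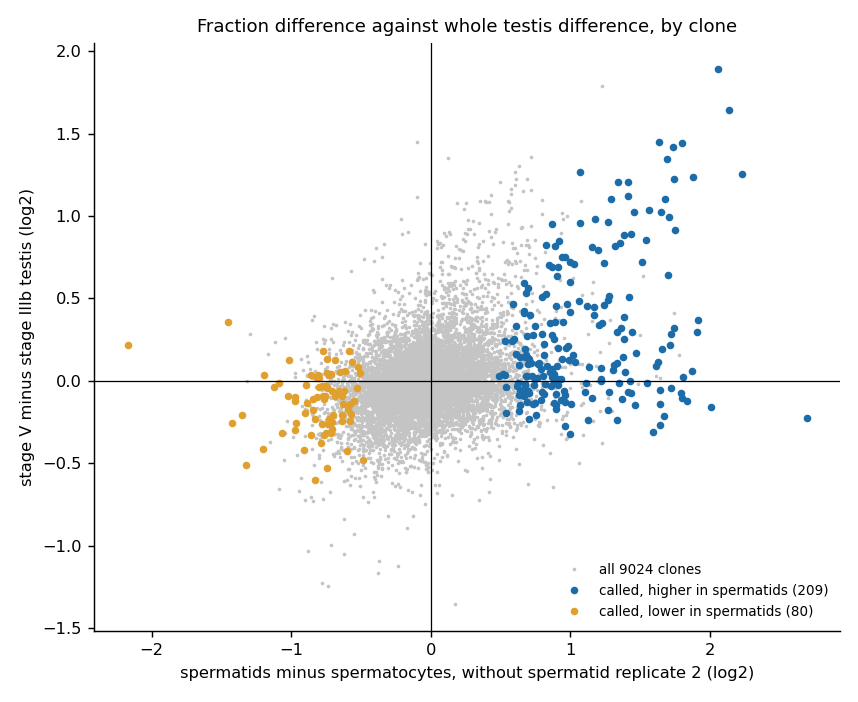
Each point is a clone, placed by its difference between spermatids and spermatocytes without spermatid replicate 2 (horizontal axis, log2) and between stage V and stage IIIb testes (vertical axis, log2); blue and yellow points are the 209 clones called higher and the 80 called lower in spermatids, which the horizontal axis chose. Of the blue points 144 lie above 0 on the vertical axis, and of the yellow points 60 lie below it.

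The 56 clones, whose difference between the stages passed an unadjusted p under 0.05 only, had their lowest levels in immature testes and spermatogonia. The median of their group means was 7.51 for stage I, 7.57 for stage IIb, 7.61 for spermatogonia, 7.90 for spermatocytes, 8.07 for stage IIIb and 8.04 for stage VIII. It was 8.94 in stage V and 8.80 in spermatids, with replicate 2 included. The clones were chosen by spermatids 1 and 3 against spermatocytes and by stage V against stage IIIb. The levels of these groups were therefore not independent of the choice. In 46 of the 56 the mean of spermatogonia was below that of spermatocytes, against 108 of all 209 higher clones. Over all clones the median of the group means was 8.15 in spermatogonia and 8.14 in spermatocytes. The values of replicate 2 entered the choice only through the pooled spread of the stage test, and so were not fully independent of it. They were above the spermatocyte mean for 30 of the 56 and below it for 26, with a median difference of 0.04. They were above all spermatocytes for 9 of the 56, against 16.9% of all clones, and below all of them for 8, against 13%. In replicates 1 and 3, which had chosen them, 48 of the 56 were above all spermatocytes on both arrays, against 4.17% of all clones. A gap of more than 2 log2 units between these 2 arrays was found for 1 of the 56, against 74 of all 9024 clones. Such a gap widened the spread in both tests that chose the 56, so this count cannot tell how well the arrays matched.

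Some of these clones changed strongly, and those given here were picked after their values were seen. A gene symbol was held for only 1 of the 56. Clone tcbk0045.b.17 had 9.81, 8.77 and 10.54 in spermatids 1 to 3 and 7.68, 8.08 and 8.38 as lowest, median and highest of the spermatocytes. Here replicate 2 was also above all spermatocytes, and the difference was 1.67 with all replicates (limma adjusted p = 0.0627) and 2.14 without replicate 2 (SE 0.42, limma adjusted p = 0.0026). Its mean was 7.31 in spermatogonia, 8.79 in stage IIIb and 10.43 in stage V testes. Clone tcbk0047.l.20 had 9.33, 8.53 and 10.82 against 7.51, 7.997 and 8.51, with stage means of 8.60 (IIIb) and 10.48 (V) and a difference of 1.54 with all replicates (limma adjusted p = 0.13) and 2.06 without replicate 2 (limma adjusted p = 0.00989). Clone tcay0007.a.07 had 9.39, 8.14 and 9.96 against 7.48, 7.92 and 8.12, and its stage means were 8.56 and 10.01. Its difference was 1.29 (limma adjusted p = 0.105) and 1.80 (limma adjusted p = 0.00229). In these 2 clones too all spermatids exceeded all spermatocytes, by a small margin in replicate 2. In stage VIII their signal came from 1 of the 3 testes, which had 10.09 for tcbk0045.b.17 where the others had 7.02 and 7.05. Clone tcaa0001.j.02 had 9.10, 7.71 and 9.86 against 7.55, 7.59 and 7.73, with replicate 2 inside the spermatocyte range, and a difference of 1.29 with all replicates (limma adjusted p = 0.0627) and 1.88 without replicate 2 (SE 0.27, limma adjusted p = 0.000116).

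The named gene among the 56 was lipea, 1 of the trout genes for hormone-sensitive lipase, an enzyme that releases fatty acids from stored lipids and that male mice need for normal sperm formation. Its log2 signal was 8.26, 7.64 and 9.15 in spermatids and 6.88, 7.47 and 7.90 in spermatocytes. Replicates 1 and 3 were above all spermatocytes and replicate 2 within their range. The difference was 0.93 with all replicates (SE 0.28, limma adjusted p = 0.209) and 1.29 without replicate 2 (SE 0.31, limma adjusted p = 0.0135). Stage V exceeded stage IIIb by 1.11 (SE 0.30, unadjusted p = 0.000847 and adjusted p = 0.223 in limma), from 7.46 to 8.56. Both clones of the related gene lipe1 were also brighter in stage V, by 0.83 and 0.88, but overlapped between the fractions, with differences of 0.26 and 0.03 with all replicates and 0.58 and 0.11 without replicate 2. In spermatogonia lipea was at 6.96, below the array median, as it was in stages I to IIIb and VIII.

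**Figure D5:**
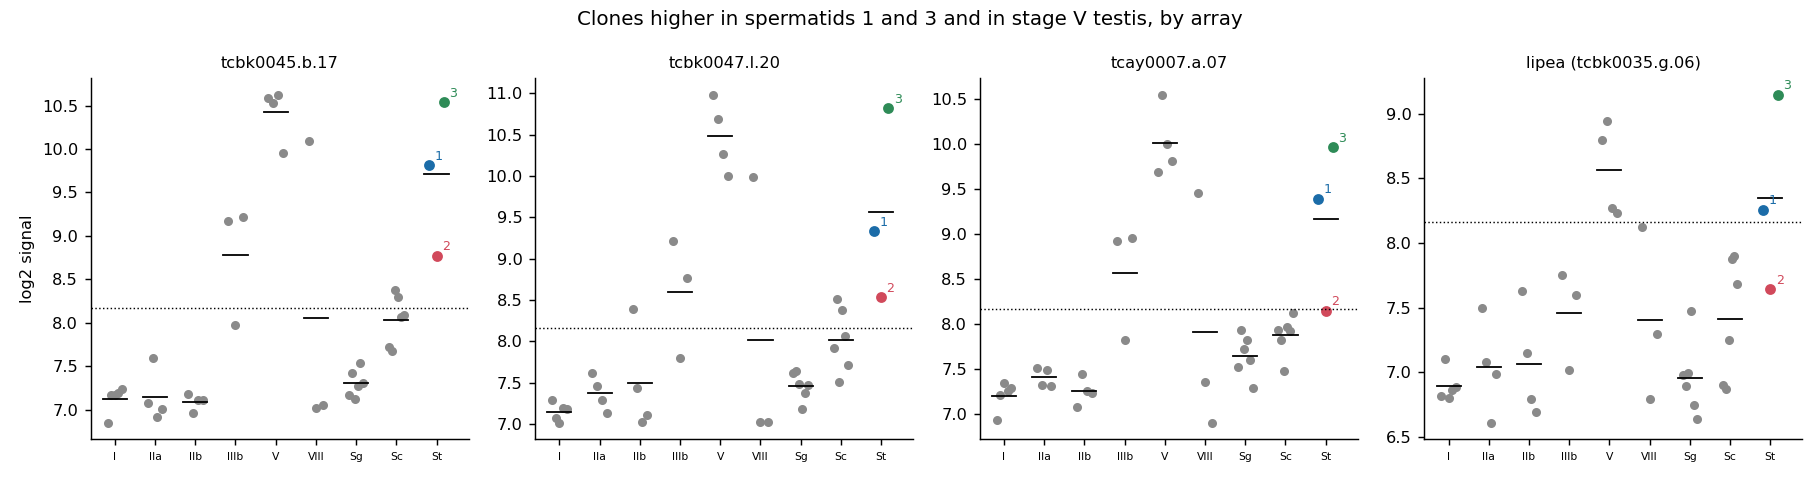
Log2 signal of 3 clones without a symbol and of lipea on every array of whole testes (stages I to VIII), spermatogonia (Sg), spermatocytes (Sc) and spermatids (St, numbered); black lines are group means, dotted lines the array median of 8.166. Stage V testes and spermatids 1 and 3 lie above spermatogonia and spermatocytes in every panel, and spermatid replicate 2 (7.64 for lipea) lies below the other spermatids.

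Among the 289 clones called without replicate 2, 18 had a symbol, and those described here were picked after their values were seen. Of the 18, 13 were higher in spermatids. SDC2, a cell-surface heparan sulfate proteoglycan, had 8.20, 8.26 and 8.82 in spermatids against 7.63, 7.73 and 7.97 in spermatocytes. Beside LOC100136183 it was the only one of the 18 whose 3 spermatids were all above the spermatocytes, with a difference of 0.66 with all replicates (SE 0.15, limma adjusted p = 0.0641) and 0.75 without replicate 2 (SE 0.18, limma adjusted p = 0.0138). The mean of SDC2 was 9.02 in stage I, 7.91 in stage IIIb, 7.78 in stage V and 9.77 in stage VIII testes, against 8.43 in spermatids. LOC100136712, known here by its locus number only, had the lowest adjusted p of all named genes and had 8.27, 7.23 and 9.66 against 6.96, 7.43 and 7.63, a difference of 1.06 with all replicates (limma adjusted p = 0.0641) and 1.64 without replicate 2 (SE 0.22, limma adjusted p = 2.87e-05). CTDSP2, a phosphatase of RNA polymerase II, had 8.11, 7.81 and 9.11 against 7.19, 7.40 and 8.09, and rose by 1.13 without replicate 2. The immune-type receptor gene nitr2 had 7.24, 7.03 and 9.17 against 6.57, 6.93 and 7.25, where replicate 3 alone was above the spermatocytes, and fih1 likewise had 8.41, 7.44 and 11.08 against 7.58, 8.09 and 8.62. With all replicates these 3 differed by 0.86 (CTDSP2), 0.91 (nitr2) and 0.86 (fih1) and were not called. The others were you2 (difference 1.23 without replicate 2 and 0.63 with it), stl1 (0.90 and 0.53), the growth factor gene rtgdnf (0.86 and 0.37), the hormone gene prl (0.82 and 0.37), LOC100136282 (0.68 and 0.30) and the ubiquitin-conjugating enzyme gene ub2r1 (0.61 and 0.30). A second clone of stl1, tcay0013.d.17, differed by 0.22 and was not called.

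The 5 genes with a symbol called lower in spermatids without replicate 2 were gpx1, nr3c1, imp3, ciapin1 and col1a1b. The glutathione peroxidase gene gpx1 had 7.20, 8.11 and 6.80 in spermatids against 7.63, 8.005 and 8.67 in spermatocytes, and 8.51 in spermatogonia. Its difference was -1.07 without replicate 2 (SE 0.22, limma adjusted p = 0.00583) and -0.70 with all replicates (limma adjusted p = 0.24). The glucocorticoid receptor gene nr3c1 had 7.94, 8.63 and 7.72 against 8.43, 8.55 and 8.74, a difference of -0.48 with all replicates and -0.75 without replicate 2 (SE 0.21, limma adjusted p = 0.0399), whereas its other clone, tcbk0026.a.09, had -0.19. For imp3, whose product takes part in ribosome assembly in yeast and mammals, the values were 6.99, 8.26 and 7.51 against 7.68, 8.27 and 8.81, and for ciapin1, a gene of iron-sulfur protein assembly, 8.57, 9.24 and 7.89 against 8.72, 8.77 and 8.94. Their differences were -0.97 and -0.58 without replicate 2 and -0.63 and -0.24 with it. In each of these 4 genes replicates 1 and 3 were below all spermatocytes and replicate 2 was inside or above their range. The collagen clone of col1a1b differed by -1.09 (SE 0.26, limma adjusted p = 0.0142) without replicate 2 and by -0.12 with it, and its other clone, tcay0027.n.15, by -0.62 and -0.48.

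The meiotic gene sycp3, which encodes a protein of the synaptonemal complex, was not lower in spermatids. It had 11.51, 10.18 and 11.72 in spermatids 1 to 3 and 9.85, 10.20 and 11.33 in spermatocytes, with spermatids 1 and 3 above every spermatocyte array. The difference was 0.68 with all replicates (SE 0.33, unadjusted p = 0.0475 and adjusted p = 0.576 in limma) and 1.15 without replicate 2 (SE 0.35, limma adjusted p = 0.0585), and did not pass in either fit. Its mean was 9.74 in spermatogonia, 10.79 in stage IIIb and 11.33 in stage V. The high mobility group gene hmgb1a, of a chromatin protein, had 11.49, 10.66 and 11.62 against 10.88, 11.33 and 11.48, a difference of 0.03 with all replicates and 0.33 without replicate 2.

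Of the gene lists examined, no member was called with all replicates, against 0.0665% of all clones, and without replicate 2 only the collagen clone of col1a1b was, against 3.2% of all clones. The genes ub2r1 and nitr2, called higher without replicate 2, were not members of these lists. The 21 ribosomal protein symbols had a median difference of -0.17, against -0.01 over all clones, and -0.24 without replicate 2, against -0.03. Among them rs15 and Rps15, clones of the same gene, were counted apart. With all replicates 2 of the 21 were lower and 0 higher at an unadjusted p under 0.05, against 3.66% and 4.92% of all clones. In spermatid replicate 1, 11 of the 21 were below all spermatocytes, against 15.1% of all clones, in replicate 3 there were 9, against 21.8%, and in replicate 2 there were 3, against 13%. The mean of the list was 11.30, 11.62 and 11.46 in spermatids and 11.47 to 11.77 in spermatocytes. Rps15, a protein of the small ribosomal subunit, had 12.44, 12.46 and 12.39 against 12.54, 12.66 and 12.76, so that all spermatids were below all spermatocytes (difference -0.23, limma adjusted p = 0.581, and -0.24 without replicate 2). The other clone of this gene, 1rt159g18_c_d09 (rs15), was not among the clones below all spermatocytes on all 3 spermatid arrays. Among 3 translation factor genes eif5a was the lowest, with 10.29, 10.46 and 9.41 against 10.38, 10.61 and 10.72 and a difference of -0.53 (SE 0.21, limma adjusted p = 0.422) and -0.74 without replicate 2 (limma adjusted p = 0.072). The median of the 3 was -0.25 with all replicates and -0.51 without replicate 2.

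The lists of protein degradation, protein folding and energy metabolism had smaller medians, some of which moved without replicate 2. For 10 genes of the proteasome and ubiquitin the median difference was 0.02 and without replicate 2 0.05, the extreme being the proteasome subunit gene PSB4 with 0.33 (unadjusted p = 0.0347 and adjusted p = 0.531 in limma) and 0.25 without replicate 2. For 8 genes of oxidative phosphorylation the median was 0.09 and without replicate 2 0.20, for 8 chaperone genes -0.10 and -0.23, and for 4 genes of splicing and RNA processing -0.04 and -0.17. With all replicates 0 members of these 3 lists passed an unadjusted p of 0.05, against 8.58% of all clones. Lists of 8, 8 and 4 genes are too small to tell these shares apart. The chaperonin gene cct8 had 11.02, 11.46 and 9.99 against 10.55, 10.98 and 11.33, below all spermatocytes in replicate 3 and above them all in replicate 2, with a difference of -0.14 and without replicate 2 of -0.46 (limma adjusted p = 0.249). The glycolytic gene gapdh (clone tcaa0001.e.20) had 9.17, 10.001 and 9.28 against 9.07, 9.21 and 9.58, where replicate 2 alone was high, and 10.62 in spermatogonia. The lists of cell division and of DNA replication matched 0 of the symbols used, so that genes of these processes under other symbols were not examined.

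The mean signals of the Leydig, Sertoli and immune cell lists lay near or below the array median on the arrays of both fractions, and that of the matrix list lay above it. For 10 Leydig cell and steroid genes the mean was 7.57, 7.75 and 7.75 in the 3 spermatid arrays and 7.66 to 8.19 in spermatocytes, and 7 to 8 of the 10 were below the array median in each spermatid array. The cholesterol transporter gene star had 7.56, 7.91 and 7.67 against 7.51, 8.24 and 9.50, a difference of -0.66 (SE 0.31, unadjusted p = 0.0413 and adjusted p = 0.559 in limma) and -0.76 without replicate 2. Igfbp7, an insulin-like growth factor binding protein gene, was below all spermatocytes on each spermatid array, with 6.89, 7.08 and 7.17 against 7.26, 7.37 and 8.42, all but the highest of these being under the array median. Among the matrix genes col1a2 had 8.65, 9.28 and 8.88 against 8.89, 9.84 and 10.22, a difference of -0.81 with all replicates (SE 0.26, limma adjusted p = 0.241) and -0.98 without replicate 2 (limma adjusted p = 0.0556). The Sertoli cell genes clu and sox9 were higher at an unadjusted p under 0.05, by 0.89 and 0.40, and by 0.17 and 0.49 without replicate 2. For 10 immune cell genes the mean was 7.69 to 8.03 in spermatids and 7.82 to 8.07 in spermatocytes. For the haemoglobin gene hba1 the spermatids had 8.29, 6.99 and 7.53 and the spermatocytes ranged from 7.04 to 9.88 around a median of 8.67.

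Of the clones whose arrays did not overlap at all between the fractions, 7 of the 72 above and 2 of the 38 below had a symbol. Beside LOC100136183 and SDC2, those above were LOC100136615 (difference 0.94, limma adjusted p = 0.0627, and 0.63 without replicate 2, limma adjusted p = 0.114), nudt7, a hydrolase gene of coenzyme A turnover in mammals (0.42, limma adjusted p = 0.148, and 0.44), spon1b, which encodes an extracellular matrix protein (0.42 and 0.47), NDFIP2, an adaptor of ubiquitin ligases (0.37 and 0.41), and GPR63, an orphan receptor of the G protein-coupled family (0.20 and 0.21). The differences of these 5 did not pass the test in either fit, and the genes were picked after their values were seen. On every array of both fractions nudt7 and GPR63 were below the array median, and spon1b reached at most 8.17. Stage V minus stage IIIb was -0.11 for spon1b, -0.04 for GPR63, 0.09 for nudt7, 0.20 for LOC100136615 and 0.24 for NDFIP2. In all 5 the mean of stage VIII testes was above that of spermatids. The genes with a symbol below all spermatocytes were Rps15 and Igfbp7, given above. The genes Tcf23, Ghr2 and Tgfbr3, a transcription factor gene, a growth hormone receptor gene and a co-receptor gene of transforming growth factor beta, differed by -0.05, -0.06 and -0.21 and without replicate 2 by 0.01, -0.18 and -0.30, and their values in spermatocytes had medians of 7.27, 7.55 and 7.06, below the array median.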

How the data were processed

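Labelled cDNA of each sample was hybridized to 1 nylon array of rainbow trout cDNA clones. The authors divided each spot's signal by that of a vector oligonucleotide, multiplied it by the spot's median vector signal, took log2 values and quantile normalized the arrays, and these log2 values were used as deposited. Of 9216 entries 192 were empty and 9024 clones were tested. The filter that the authors set on weak vector signal was not applied. All 38 columns matched a sample by its label, and 0 were left over.

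Symbols came from the array's platform annotation for 677 clones, 669 of them found in RefSeq. For 3 clones (Txndc6, Tcf23 and Tgfbr3) they came from the study's text, and for 161 from part of its supplementary annotation. In that part 224 of 229 entries matched by clone name and by expression values within 0.01 log2 units. The other 8183 clones had none. SDC2, CTDSP2, spon1b, NDFIP2 and GPR63 were named from the supplementary annotation, whose symbols were not used for the gene lists.

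Group means of all 9 groups were fitted in R 4.3.3 with the limma package, version 3.58.1 (residual df 29, prior df 7.3), and contrasts were tested 2-sided with Benjamini-Hochberg adjustment over all clones at 0.05. The script was tested on simulated data. The comparison, gene lists and markers were chosen with earlier results of these data known, and some list members were added or dropped after the symbols were seen. Genes were named where they passed with all replicates and had a known function, where they were among at most 6 of a list by size of difference (brightest clone of each gene), where the study named their clone, or as sycp3; the others are said to be picked after their values were seen. Same-numbered spermatid and spermatocyte arrays did not deviate together (correlations -0.374, -0.128 and -0.03). Alternatives left out each array, fitted fewer arrays, used a replicate block, array weights, other handling of dim or missing clones, other normalizations and a variance trend. Those without spermatid replicate 2 were added after the data were seen.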

Additional observations from a re-analysis of the deposited data

Results flagged for a closer look

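For 54 clones given in the text, the highest and lowest of the 6 spermatocyte arrays were tested for a gap to the nearest array, and 5 had 1 array far from the rest. Chance flags about 1 in 20 groups. Clone tcbk0007.n.10 had 7.616 on spermatocyte replicate 2, with the nearest array at 7.982. Clone tcaa0001.j.02 had 7.726 on replicate 6, above 7.595. The collagen gene col1a1b had 9.678 on replicate 5, below 10.82. CTDSP2, the phosphatase gene, and Igfbp7 were high on replicate 2, with 8.091 over 7.517 and 8.417 over 7.413. No cause was tested for these values.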

How the results depend on the processing

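Without 1 array at a time, the calls between spermatids and spermatocytes ranged from 3 (without spermatocyte replicate 4) to 289 (without spermatid replicate 2), with 10 without spermatocyte replicate 1 and 30 without spermatid replicate 1. The fit gave 0 calls on the 9 arrays of both fractions, on the 15 arrays of the 3 fractions and with array weights, with 253, 432 and 395 clones at an unadjusted p under 0.05, 20 calls when clones dim in both fractions were left out (4841 tested), and 47 with a floor set at the array median. The replicate block gave 0 calls (110 at an unadjusted p under 0.05), and without spermatid replicate 2 also 0 (394), but the arrays share only a number. Without spermatid replicate 2 the 289 calls became 8 on the arrays of both fractions, 37 with spermatogonia added, 11 with array weights and 557 with the floor, and ranged from 36 (without spermatid replicate 3) to 718 (without spermatid replicate 1), with 484 without spermatocyte replicate 6. The other settings stayed within 1.5 times, from 6 to 7 calls with all replicates and from 278 to 314 without replicate 2. Of the 6 called clones, those above stage IIIb in stage V numbered 6 with any 1 stage array left out, and with the 209 clones in their place 144. The cause of these moves was not tested. Of 144 clones followed through the settings, 1 changed sign where called, clone 1rt33k14_c_f07 without replicate 2, whose difference ranged from -0.1261 without spermatid replicate 3 to 3.717 without spermatid replicate 1.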
